A study of Homo sapiens with 12 samples.

Results

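The genes described here carry the transcriptional response to low oxygen and the glycolytic pathway. The list held 34 genes, 2 HIF hydroxylases, 11 hypoxia target genes, 5 genes of glucose and lactate transport or of flux control, and 16 glycolytic enzymes. Members were found as probes annotated to their symbols, with PKM2 accepted for PKM, and kept where a probe had a detection p under 0.05 on 3 or more arrays. Of the 34 genes, 32 had a probe under their symbol and 30 had a detected one, out of 17369 features tested in all. CA9 and SLC16A3 had no probe under their symbol and were not analysed here. EGLN3 and PDK1 were detected on 0 arrays, with lowest detection p-values of 0.591 and 0.44. Of the 30 genes described, all were detected on each of the 11 arrays that lead the analysis.

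The cells were PANC-1, an established human line from a ductal adenocarcinoma of the pancreas, grown in DMEM with serum. Each culture received 1 of 4 oligos for 20 h: premir miR-10b, a mimic that adds miR-10b, set against premir control, and antimir-10b, an inhibitor of miR-10b, set against antimir control. Each oligo had 3 biological replicates, giving 12 Illumina BeadChip arrays of total RNA. The labels give no oxygen level and no untransfected culture, all cultures were transfected, and 1 cell line cannot speak for others. The level of mature miR-10b was not analysed here. In bulk RNA, fewer cells that express a gene and less RNA of it per cell cannot be told apart.

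In normal oxygen, prolyl hydroxylases of the EGLN family mark the alpha subunits of hypoxia-inducible factor (HIF) for capture by VHL and degradation. In low oxygen the subunits persist, pair with ARNT and bind a short core sequence in target promoters and enhancers. The targets include VEGFA, an angiogenic growth factor, and most enzymes of glycolysis, which turns glucose into pyruvate and lactate. Pancreatic ductal tumours are known for dense, poorly perfused tissue and for high glucose use.

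The HIF core, ACGTG or GCGTG, was searched on both strands in RefSeq promoters of GRCh38.p14. The search ran from 250 bases before to 50 bases after the annotated start, to show where this string lies there. The string overlaps the E-box CACGTG, which holds ACGTG on both strands. The core was found in 34 of 49 promoters of the described members (69.4%), which belonged to 27 genes, and in 17012 of 35116 promoters of all genes (48.4%). Members' promoters had a median GC content of 69%, against 58.7% for all promoters. Among promoters of all genes with a GC content from 56.7% to 71.3%, the middle range of the members, 62.1% held it. The median GC content of that set was 64%, still below that of the members. A match is a string of letters and not evidence of HIF binding. VEGFA, BNIP3L and NDRG1 had no entry. The sequences of the 7 members with the smallest p of their role in the premir or antimir comparison run 5′ to 3′ on the gene's strand. The core is in capitals (CACGT is ACGTG on the other strand), and each of the 7 promoters held 1 match.
EGLN1: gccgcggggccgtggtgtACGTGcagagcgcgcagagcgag
ADM: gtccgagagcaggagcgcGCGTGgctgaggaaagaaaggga
ANGPTL4: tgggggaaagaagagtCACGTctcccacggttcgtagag
SLC2A1: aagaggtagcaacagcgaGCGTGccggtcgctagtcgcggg
PFKFB4: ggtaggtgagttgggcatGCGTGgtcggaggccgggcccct
GPI: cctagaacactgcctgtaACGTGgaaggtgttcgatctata
ENO2: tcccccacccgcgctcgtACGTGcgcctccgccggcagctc

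The EGLN1 window lies at chr1:231422278-231422318 on the minus strand, with its core 13 bases before the start. The SLC2A1 window, at chr1:42958821-42958861 on the minus strand, has its core 25 bases past the start and so inside the transcript. The cores of ADM (chr11:10304954-10304994, plus strand) and ENO2 (chr12:6914444-6914484, plus strand) lie 101 and 118 bases before the start. Those of GPI (chr19:34364812-34364852, plus strand), PFKFB4 (chr3:48556947-48556987, minus strand) and ANGPTL4 (chr19:8363905-8363943, plus strand) lie 162, 166 and 234 bases before it.

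The array premir miR-10b 2 stood apart from the other 11. It had 29.45% of its probes detected, against 39.23% to 41.32% on the others, and a median correlation with them of 0.8172, where the lowest pairwise correlation among the 11 was 0.981. Results therefore lead with the 11 arrays, leaving 2 arrays of premir miR-10b; for the premir comparison and the interaction, the members' changes with all 12 are given beside them. Levels are log2 intensities after background correction and quantile normalization of the 12 arrays, and they can be compared between arrays for 1 gene but not between genes. HTATIP2, a known target of miR-10b, fell with premir miR-10b, with a log2 change of -1.061 ± 0.114 (SE; limma adjusted p = 0.0004139), and of -1.173 with 12 arrays (adjusted p = 0.01369). By the rule of detection on 3 or more arrays, all 6 epithelial markers listed were detected, 4 of them on all 12 arrays, and 0 of 4 endothelial markers. Of the others, COL1A1 and DCN (2 of 6 fibroblast markers), CD14, CD68 and ITGAM (3 of 6 leukocyte markers, PTPRC and CD3E being undetected), AMY2A (1 of 4 acinar) and CHGA (1 of 4 islet) were detected. On all 12 arrays it was 1 fibroblast, 2 leukocyte, 0 acinar and 0 islet markers.

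**Figure D1:**
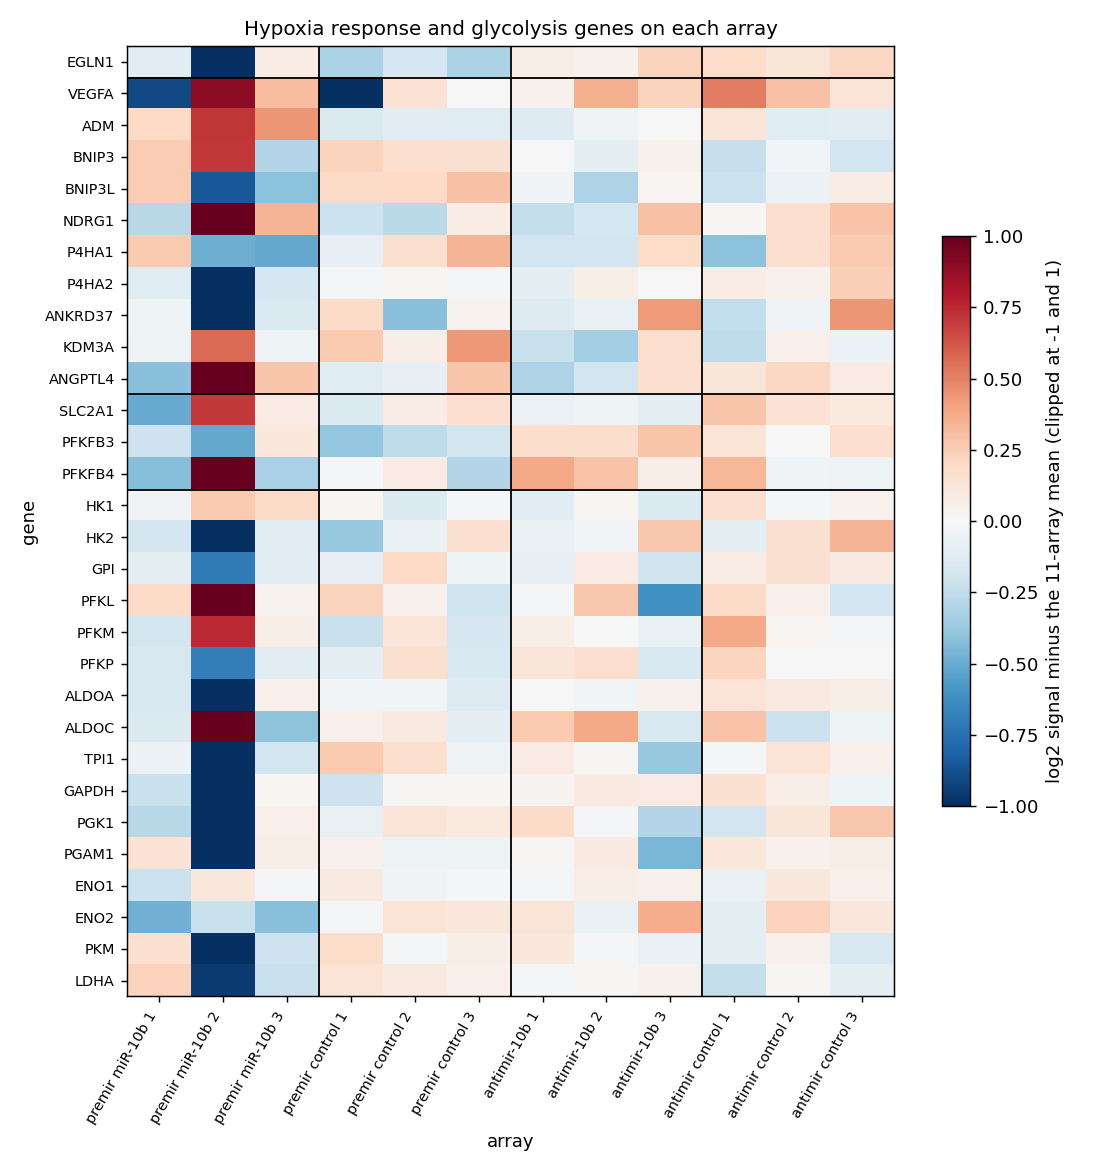
Log2 level of each of the 30 detected members (rows, by role) on each of the 12 arrays (columns, by oligo), as the difference from the gene's mean over the 11 arrays, with colours clipped at 1 log2 unit either way. The array premir miR-10b 2 holds most of the strong colours, with 12 members above and 15 below the range of the other 11 arrays.

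Added miR-10b against its control oligo asks whether the hypoxia and glycolysis genes move when the microRNA is raised. With 11 arrays, 0 of 30 members passed the threshold of an adjusted p under 0.05 (limma, Benjamini-Hochberg over all features), beside 124 of all features (0.714%), 40 higher and 84 lower (26 and 26 under median centring). With 12 arrays it was 0 of 30, beside 0.127% of all features. At an unadjusted p under 0.05 there were 2 members, ADM and ENO2, or 6.67% of them, against 7.94% of all features. The members' log2 changes ran between -0.53 and 0.442 with a median of -0.099, where the median of all features was 0.003, and 20 of 30 were below 0. That median was -0.312 with 12 arrays and 0.024 under median centring in place of quantiles, where the median of all features was 0.052 and 0.089. The 95% interval of the change lay within 1.5-fold either way for 20 of 30 members (66.7%) and for 72.9% of all features. Among these 20 were GAPDH, ENO1, PKM, LDHA and PGK1, which carry the lower steps of glycolysis. This holds for the probe used for each gene. The other detected LDHA probes changed by -0.109 and -0.427. With 12 arrays it held for 5 of 30 members (16.7%), BNIP3, KDM3A, PFKFB3, HK1 and ENO1, and for 28.8% of all features.

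**Figure D2:**
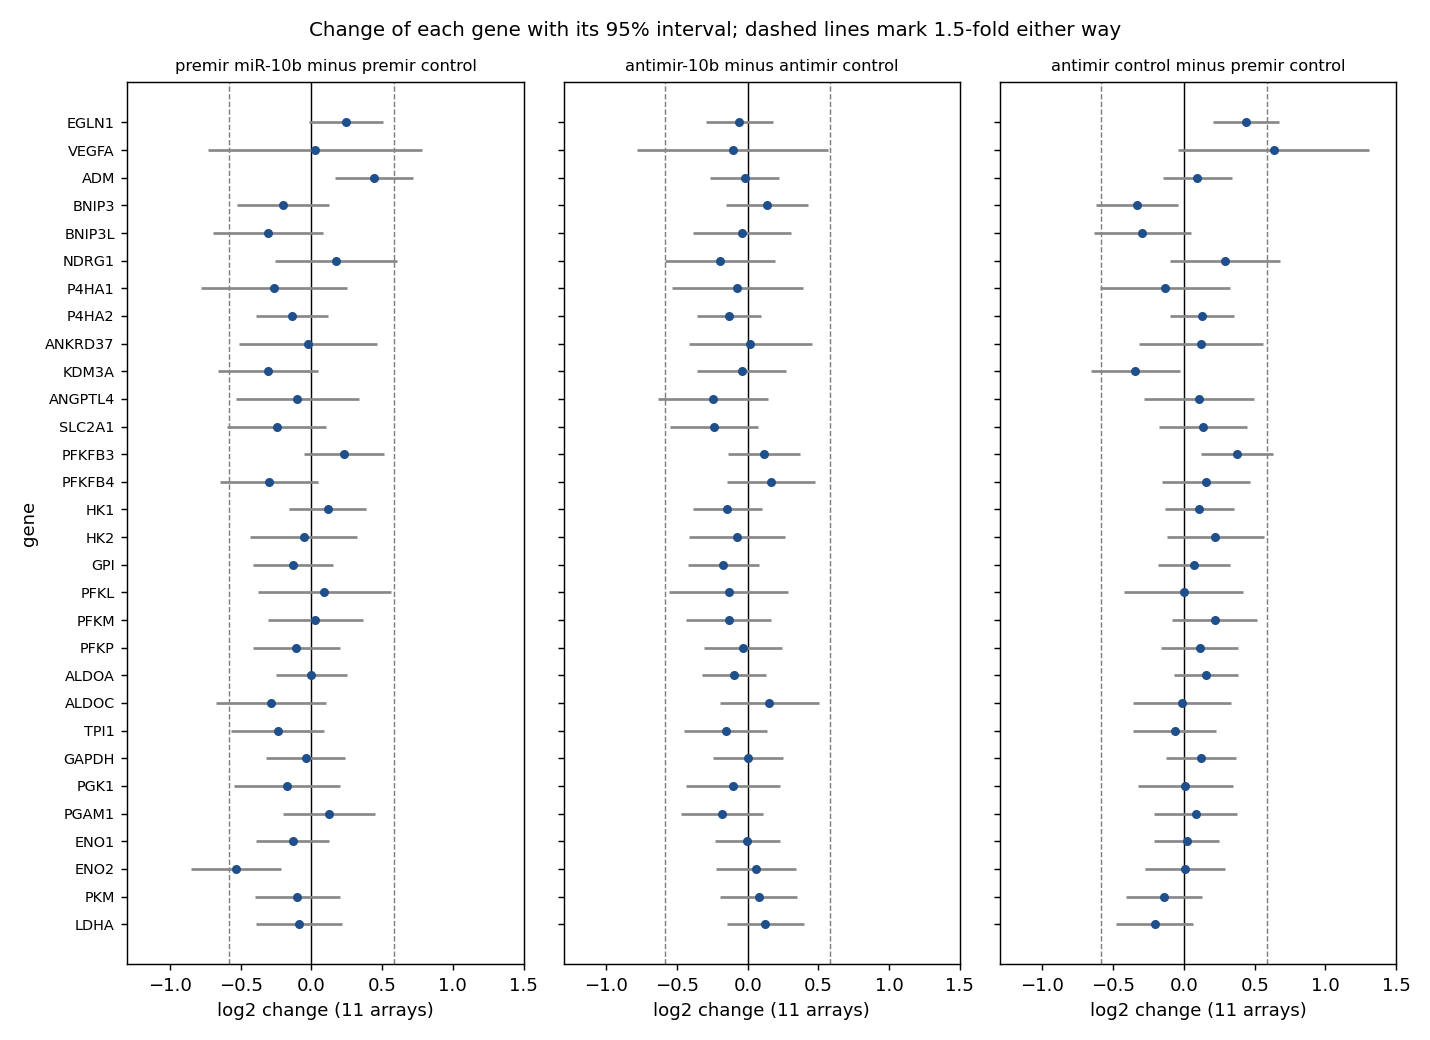
Log2 change of each member (rows) with its 95% interval (bars) in 3 comparisons, fitted on 11 arrays, with dashed lines at 1.5-fold either way. Adjusted p-values were 0.1862 or more for all members, and the intervals of ADM and ENO2 leave out 0 for premir miR-10b against premir control.

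Among the hypoxia target genes, ADM encodes adrenomedullin, a secreted vasodilator peptide. Its log2 level was 12.42 and 12.66 on the premir miR-10b arrays, and 12.94 on premir miR-10b 2, against 12.08, 12.11 and 12.10 on the premir control arrays. The groups did not overlap, and these 3 arrays were also above all 6 antimir arrays, the highest of which was antimir control 1 at 12.35. The log2 change was 0.442 ± 0.127 (SE; 95% interval 0.167 to 0.716), a 1.36-fold difference, with a limma adjusted p of 0.2147. With 12 arrays it was 0.575 with an adjusted p of 0.4207. Of the other 9 hypoxia targets, 7 were below 0, and the role's median was -0.117. BNIP3L, a mitophagy receptor, gave -0.306 ± 0.179 on the log2 scale (SE), and -0.561 with 12 arrays. That value rested on premir miR-10b 3, at 7.41 where premir miR-10b 1 had 8.07; it was 0.027 without premir miR-10b 3 and -0.638 without premir miR-10b 1. KDM3A, a histone demethylase, gave -0.304 ± 0.164 (SE), and -0.097 with 12 arrays. NDRG1, a stress-induced protein, gave 0.174 ± 0.2 (SE), 0.634 with 12 arrays and -0.135 without premir miR-10b 3. VEGFA gave 0.024 ± 0.351 (SE) with an interval from -0.732 to 0.779, the widest of any member on 11 arrays, and 0.423 with 12 arrays. These changes are not read as directions.

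ENO2, the neuronal form of enolase, which makes phosphoenolpyruvate, showed the opposite pattern. Its log2 level was 8.39 and 8.45 on the premir miR-10b arrays, and 8.65 on premir miR-10b 2, against 8.85, 9.01 and 8.98 on the premir control arrays. All 3 were below every array of the other 9, the lowest of which was antimir control 1 at 8.78. The log2 change was -0.53 ± 0.147 (SE; 95% interval -0.848 to -0.213), a ratio of 0.692, with a limma adjusted p of 0.1862. With 12 arrays it was -0.453 with an adjusted p of 0.4485. ENO1, the enolase found in most tissues, gave -0.13 ± 0.12 (SE), and -0.055 with 12 arrays. Over the 16 glycolytic enzymes, 11 were below 0 and 5 above, with a median of -0.094. Apart from ENO2, ALDOC, the aldolase of brain, gave -0.288 ± 0.181 on the log2 scale (SE), turning to 0.551 with 12 arrays. TPI1, the triose phosphate isomerase, gave -0.239 ± 0.153 (SE), and -1.516 with 12 arrays. HK1, a hexokinase, gave 0.115 ± 0.127 (SE), 0.176 with 12 arrays and -0.002 without premir miR-10b 3. The intervals of all 3 held 0 with 11 and with 12 arrays.

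EGLN1, the main HIF prolyl hydroxylase in most cells, had log2 levels of 7.0 and 7.19 on the premir miR-10b arrays against 6.80, 6.95 and 6.80 on the premir control arrays. The groups did not overlap on 11 arrays, with a log2 change of 0.246 ± 0.122 (SE; limma adjusted p = 0.6928). On premir miR-10b 2 the gene was at 5.03 and not detected, and the change with 12 arrays was -0.442 with an interval from -1.414 to 0.531. PFKFB4, a bifunctional enzyme that sets the level of fructose 2,6-bisphosphate, was at 7.05 and 7.15 on the premir miR-10b arrays against 7.46, 7.56 and 7.18 on the premir control arrays. Its log2 change of -0.30 ± 0.161 (SE; adjusted p = 0.7421) became 0.267 with the array premir miR-10b 2, where it stood at 8.80. Its relative PFKFB3 gave 0.229 ± 0.132 on the log2 scale (SE), and 0.075 with 12 arrays. The glucose transporter SLC2A1 gave -0.246 ± 0.162 (SE), turning to 0.059 with 12 arrays. Its premir miR-10b arrays stood apart, at 9.11 and 9.70, and the change was -0.539 without premir miR-10b 3 and 0.047 without premir miR-10b 1.

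Without overlap between premir miR-10b and premir control were 10 of 30 members (33.3%), beside 19.8% of all features: EGLN1, ADM, P4HA2, KDM3A, PFKFB4, GPI, ALDOC, TPI1, PGAM1 and ENO2. A count chosen after the values were seen took the premir miR-10b arrays beyond all 9 others on the same side. It held for ADM, P4HA2, PFKFB4 and ENO2 on 11 arrays, or 13.3% of members against 5.29% of all features. With the third premir miR-10b array included it held for ADM, P4HA2 and ENO2, or 10% against 2.92%. P4HA2, a collagen prolyl hydroxylase, had 9.29 and 9.24 on the premir miR-10b arrays against 9.39, 9.42 and 9.39 on the premir control arrays, so its separation was small, at -0.135 ± 0.118 log2 (SE), and -0.89 with 12 arrays. On its second detected probe the groups overlapped, at 7.75 and 8.24 against 7.79, 8.10 and 8.23, a log2 change of -0.042. The groups also overlapped on the second probe of TPI1, but not on that of PGAM1. On premir miR-10b 2 P4HA2 stood at 7.0, and its second probe went the other way there.

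**Figure D3:**
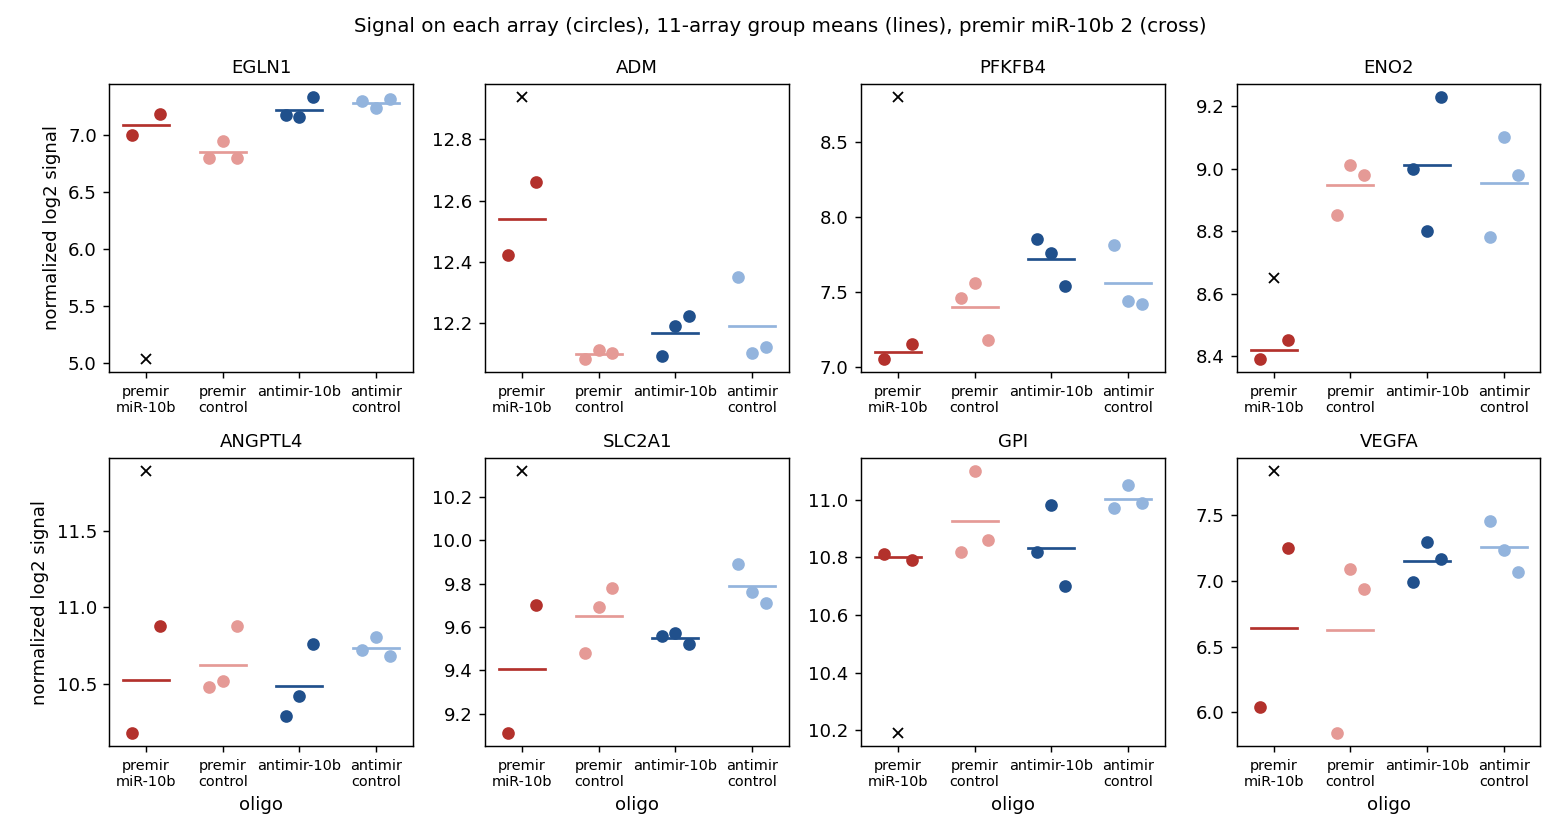
Log2 level of 8 members on each array, by oligo. Circles are the 11 arrays, lines are group means over those arrays and the cross is premir miR-10b 2; ADM is highest and ENO2 lowest with premir miR-10b, and VEGFA is low on premir miR-10b 1 and premir control 1.

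Inhibiting miR-10b, antimir-10b against antimir control, asks about the reverse. For all features and members alike, 0 passed the threshold with 11 arrays (0%) and with 12 arrays (0%), and at an unadjusted p under 0.05 in limma it was 0 of 30 members against 365 of all features (2.1%). On the probe used for each gene, the members' log2 changes ran between -0.247 and 0.163, with a median of -0.065 where the median of all features was 0.001. With the authors' scaled values and under median centring it was 0.042 and 0.04, where the median of all features was 0.055 and 0.071. The 95% interval lay within 1.5-fold for 28 of 30 members (93.3%), beside 87.8% of all features; the exceptions were VEGFA and ANGPTL4. The changes themselves do not use premir miR-10b 2, but with all 12 arrays in the fit the median half-width of the members' intervals was 0.658 log2 units, against 0.293 on 11 arrays. Without overlap were SLC2A1, PFKFB3 and ALDOA, or 10% of members against 8.64% of all features. On the second probe of ALDOA the groups overlapped, with a log2 change of -0.465. The second probe of PFKFB3 also separated the groups but in the other direction, at -0.188 where the probe used gave 0.113.

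SLC2A1, the basal glucose transporter GLUT1, had log2 levels of 9.56, 9.57 and 9.52 on the antimir-10b arrays against 9.89, 9.76 and 9.71 on the antimir control arrays. All antimir-10b arrays were below all antimir control arrays, and the log2 change was -0.24 ± 0.145 (SE; 95% interval -0.552 to 0.072; limma adjusted p = 0.9992). ANGPTL4, an inhibitor of lipoprotein lipase, had 10.29, 10.42 and 10.76 on the antimir-10b arrays against 10.72, 10.81 and 10.68 on the antimir control arrays. The groups overlapped through antimir-10b 3, and the log2 change was -0.247 ± 0.181 (SE; adjusted p = 0.9992). Its other 2 detected probes gave 0.008 and -0.325. GPI, which turns glucose 6-phosphate into fructose 6-phosphate, had 10.82, 10.98 and 10.70 on the antimir-10b arrays against 10.97, 11.05 and 10.99 on the antimir control arrays. Its groups overlapped at 1 array, with a log2 change of -0.171 ± 0.117 (SE; adjusted p = 0.9992). EGLN1 had 7.18, 7.16 and 7.34 on the antimir-10b arrays against 7.30, 7.24 and 7.32 on the antimir control arrays, a log2 change of -0.059 ± 0.11 (SE; adjusted p = 0.9992). ADM gave -0.021 log2 (95% interval -0.266 to 0.224) and ENO2 gave 0.057 (95% interval -0.227 to 0.341).

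The difference between the premir and the antimir effects was tested as an interaction. Of the members 0 of 30 passed with 11 arrays, beside 0.363% of all features, and 0 of 30 with 12 arrays, beside 0%. At an unadjusted p under 0.05 it was again ADM and ENO2, or 6.67% of members against 6.42% of all features. For ADM the premir effect exceeded the antimir effect by 0.463 log2 (limma adjusted p = 0.6036), and by 0.596 with 12 arrays (adjusted p = 0.7345). For ENO2 the difference was -0.587 (adjusted p = 0.5125), and -0.51 with 12 arrays (adjusted p = 0.7345). The median over the members was -0.025, where that of all features was 0.004. It was -0.209 with 12 arrays and 0.046 without premir miR-10b 1.

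Antimir control against premir control sets the 2 control oligos, which are of different types, side by side. Of the members 0 of 30 passed with 11 arrays, beside 0.207% of all features, and 0 of 30 with 12 arrays, beside 0.023%. At an unadjusted p under 0.05 it was 4 members (13.3%), EGLN1, BNIP3, KDM3A and PFKFB3, against 10.2% of all features. EGLN1 had log2 levels of 7.30, 7.24 and 7.32 on the antimir control arrays against 6.80, 6.95 and 6.80 on the premir control arrays. The groups did not overlap, and the log2 change of 0.438 ± 0.11 (SE; limma adjusted p = 0.1885) stands beside the 0.246 between premir miR-10b and premir control; both comparisons use the same premir control arrays. BNIP3, a mitophagy receptor and HIF target, gave -0.33 ± 0.135, KDM3A -0.344 ± 0.147 and PFKFB3 0.376 ± 0.118 on the log2 scale (SE). Without overlap were 8 of 30 members (26.7%), beside 19.8% of all features, and 22 of 30 (73.3%) had intervals within 1.5-fold, beside 76.9%. The members' median was 0.101, against 0.009 for all features; with the authors' scaled values it was 0.034, against -0.027.

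The members varied between arrays of the same oligo about as much as other features did. Their median residual SD was 0.163 log2 units, against 0.171 over all features. On the probe used for each gene, ALDOA (0.07), P4HA2 (0.073) and ENO1 (0.081) varied least. VEGFA varied most, at 0.507, above 99.6% of all features. The second ALDOA probe varied more, at 12.20, 12.67 and 11.50 on the antimir-10b arrays, where the probe used had 12.57, 12.54 and 12.61. VEGFA had 6.04 and 7.25 on premir miR-10b arrays 1 and 3, 5.84, 7.09 and 6.94 on the premir control arrays, and 6.99 or more on the 6 antimir arrays. The 2 low arrays carry the number 1 in both premir groups, and the second VEGFA probe was also lowest on these 2 of the 11 arrays, at 5.47 and 5.20. That probe was detected on 10 of the 12 arrays, so its low values lie near background. On antimir-10b 3, 10 of 10 hypoxia targets were above their 11-array means, with a median deviation of 0.162, against 1 and 2 of 10 on antimir-10b 1 and 2, with medians of -0.127 and -0.131. On the same array, 6 of 16 glycolytic enzymes were above their means, with a median of -0.106, and 55.2% of all features were above theirs. Each of these arrays was left out in turn among the alternatives. Without antimir-10b 3 the members' median antimir change was -0.078, against -0.065 with it. Why these arrays stood apart was not tested.

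On premir miR-10b 2 the members went in both directions, and probes of the same gene went apart. There 12 members were above and 15 below the range of the other 11 arrays, so that 90% lay outside it, beside 78.8% of all features. PGAM1, a phosphoglycerate mutase, stood at -5.717 log2 units from its 11-array mean and its second probe at -2.975; PGAM4, a near-identical copy, can share signal with it. TPI1 stood at -3.948 on the probe used and at -0.108 on the other. PKM, pyruvate kinase, stood at -1.193, -4.094 and -4.508 on its 3 probes, the last of which was not detected on this array, so that -4.508 is set by the background. P4HA2 stood at -2.411 on 1 probe and 0.953 on the other, and HK2, the inducible hexokinase, at -1.747 and 1.384. Of 13 members with more than 1 detected probe, the probes differed there by 1.238 (VEGFA) to 3.84 (TPI1) log2 units; 1 probe each of VEGFA, ANGPTL4 and PKM was not detected on this array. On the 11 arrays the probes of these genes differed in the premir change by 0.34 log2 units or less. In the antimir change they differed by up to 0.423, for TPI1, at -0.153 on the probe used and 0.27 on the other. Those of ALDOA differed there by 0.369, at -0.096 and -0.465.

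**Figure D4:**
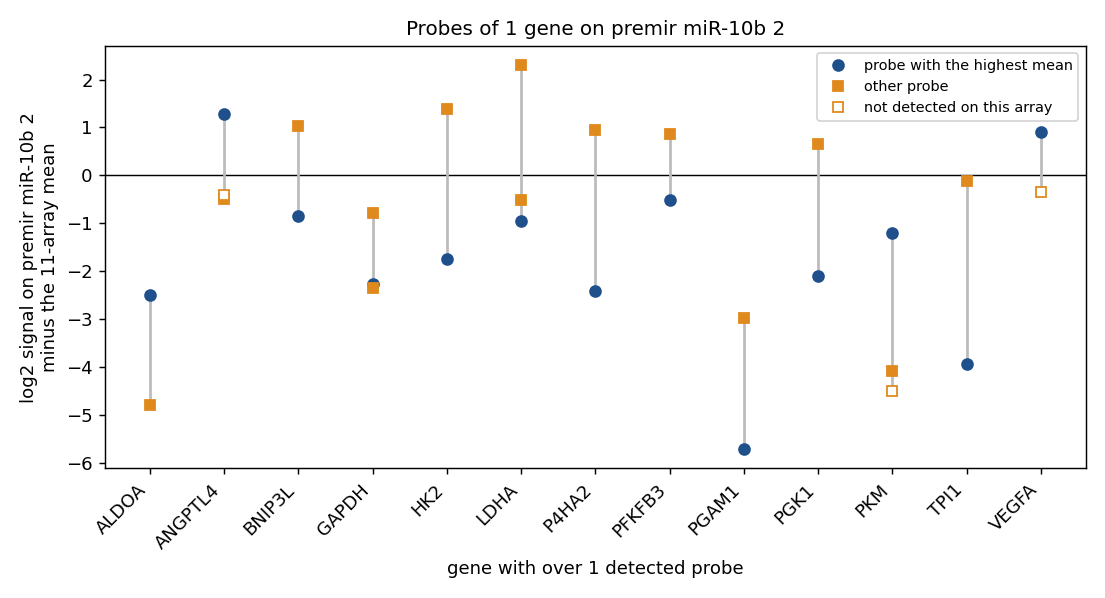
Deviation of each detected probe on premir miR-10b 2 from that probe's mean over the other 11 arrays, in log2 units, for the 13 members with more than 1 detected probe. Circles are the probe with the highest mean, used elsewhere for the gene, and squares its other probes, open where the probe was not detected on this array; they stand apart by 1.238 to 3.84 units.

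The other genes of the pathway were taken from 3 lists and tested on 11 arrays. Of 19 HIF regulators 16 were measured. CITED2, which competes with HIF alpha subunits for the coactivators EP300 and CREBBP, rose with premir miR-10b, with log2 levels of 9.04 and 9.22 (and 8.27 on premir miR-10b 2) against 8.62, 8.46 and 8.28 with premir control. The 6 antimir arrays lay between 8.64 and 8.94, and antimir control was 0.285 log2 above premir control (limma adjusted p = 0.4617). The interaction for CITED2 was 0.571 (adjusted p = 0.4611). Its log2 change with premir miR-10b was 0.678 ± 0.136 (SE; limma adjusted p = 0.03585), and 0.391 with 12 arrays (adjusted p = 0.4485). The call was also lost without premir miR-10b 3 (0.59, adjusted p = 0.2913), premir control 2 (0.679, adjusted p = 0.1215) or premir control 3 (0.591, adjusted p = 0.1591), and, at the same change, without antimir control 2 or 3 or antimir-10b 1 or 2 (adjusted p = 0.07128, 0.05384, 0.06075 and 0.05149). With the replicate number as a block it was 0.668 (adjusted p = 0.09377). The other 15 did not pass, so that 6.25% of the list did, beside 0.714% of all features, and the median of the list was -0.002. Of 37 other hypoxia-induced genes 27 were measured, of which 1 rose and 1 fell (7.41%, beside 0.714% of all features), with a median of -0.033. The lists were chosen with earlier results of these data known and the shares rest on few genes, so they are not read as a result about the lists.

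STC1, stanniocalcin, a secreted glycoprotein, rose by 0.963 log2 ± 0.177 (SE; limma adjusted p = 0.01937), with 6.61 and 6.46 (and 7.15 on premir miR-10b 2) on the premir miR-10b arrays against 5.48, 5.52 and 5.72 on the premir control arrays. STC1 was detected on all 12 arrays at a detection p under 0.05, but not on all of the 11 at a detection p under 0.01. The 6 antimir arrays lay between 6.03 and 6.60, overlapping the premir miR-10b arrays, and antimir control was 0.685 above premir control (adjusted p = 0.1459). INSIG2, which holds the sterol sensor SCAP in the endoplasmic reticulum, fell by 0.778 log2 ± 0.151 (SE; adjusted p = 0.02891), with 6.86 and 6.54 (and 6.90 on premir miR-10b 2) on the premir miR-10b arrays against 7.51, 7.47 and 7.45 on the premir control arrays. With 12 arrays neither call held, at 1.167 (adjusted p = 0.1107) for STC1 and -0.712 (adjusted p = 0.2196) for INSIG2. With the replicate number as a block INSIG2 gave -0.773 (adjusted p = 0.09377). Leaving out 1 array ended the STC1 call for premir miR-10b 1 (0.885, adjusted p = 0.05908) and 3 (1.04, adjusted p = 0.07462) and for premir control 1 (0.915, adjusted p = 0.07931) and 2 (0.938, adjusted p = 0.08713). It ended the INSIG2 call for premir miR-10b 3 (-0.621, adjusted p = 0.292), for premir control 1, 2 and 3 (-0.761, -0.782 and -0.791, adjusted p = 0.09822, 0.09659 and 0.09669) and, at the same change, for antimir control 3 and antimir-10b 1 (adjusted p = 0.05316 and 0.05555). In the interaction and in antimir control against premir control, 0 of the 71 measured genes of the 3 lists passed. At an unadjusted p under 0.05 in limma it was 4 (5.63%, against 6.42% of all features) and 13 (18.3%, against 10.2%). STC1 passed between the control oligos without antimir-10b 3 (0.685, adjusted p = 0.04855). In the interaction STC1 passed without antimir-10b 3 (1.174, adjusted p = 0.03266) and INSIG2 without premir miR-10b 1 (-1.083, adjusted p = 0.03358).

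Of 45 other genes of central carbon metabolism 28 were measured and 0 passed in the premir comparison; 2 had an unadjusted p under 0.05 in limma. The list's median was -0.079. The smallest p-values belonged to MPC2, a subunit of the mitochondrial pyruvate carrier, at -0.495 log2 (adjusted p = 0.1589; -0.589 with 12 arrays), and RPE, of the pentose phosphate pathway, at -0.592 (adjusted p = 0.5271; -0.92 with 12 arrays). With antimir-10b 0 genes of the 3 lists passed, and 0 had an unadjusted p under 0.05. HIF1A, the HIF-1 alpha subunit, gave 0.34 and SIAH1, a ubiquitin ligase, gave 0.204 log2. PLIN2, a lipid droplet protein, gave -0.292 and GBE1, the glycogen branching enzyme, 0.22. MPC1, the partner of MPC2, gave 0.231 and PGM1, a phosphoglucomutase, -0.138.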

How the data were processed

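RNA of 12 PANC-1 cultures was read on Illumina BeadChips. The authors deposited a non-normalized table of intensity and detection p-value per probe, with 47231 probes, and a table of scaled intensity values; the sources used here give no software or genome build. The scaled values served as an alternative. From the deposited intensity, log2 values were computed here with neqc (limma 3.58.1, R 4.3.3; offset 16, quantile normalization of 12 arrays). Probes with a detection p under 0.05 on 3 or more arrays were kept (21195), and each symbol took its probe with the highest mean. Symbols came from the platform annotation, updated through Entrez numbers; 30113 probes had 1 symbol, 8 had several and 17110 had none. Group means were fitted with limma (two-sided, Benjamini-Hochberg over 17369 features, threshold 0.05) on 11 arrays, without premir miR-10b 2. The script was tested on simulated data.

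The members and lists were chosen with earlier results of these data known. Values on every array are given for the member of each role with the smallest p in the premir and antimir comparisons (EGLN1, ADM, ANGPTL4, SLC2A1, PFKFB4, GPI and ENO2); of the other lists, called genes are named, or the 2 with the smallest p. VEGFA, P4HA2 and the genes named for premir miR-10b 2 were chosen after their values were seen. The labels call the replicates biological but name no separate passages or days, so p-values measure the spread between these samples. Precision is limited by the small number of arrays. Of 15 pairs of arrays with the same replicate number, 7 had deviations correlated above 0.1 (range -0.391 to 0.419), so numbers were not taken to pair samples, and a term for replicate 3 was not read. Within the premir comparison the pairs stood at 0.419 and 0.19, and within the antimir comparison at 0.16, -0.102 and 0.364. Fits with the replicate number as a block are therefore given as an alternative. Alternatives covered the arrays, normalization, background, filter, probe rule, block, variance model and weights.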

Additional observations from a re-analysis of the deposited data

How the results depend on the processing

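The count of members past the threshold stayed at 0 of 30 in every comparison under every alternative run except array weights, which gave premir miR-10b 1, 2 and 3 weights of 0.36, 0.0269 and 2.53. With those weights 3 members passed in the premir comparison, ADM at 0.533 log2 (limma adjusted p = 0.01315), BNIP3L at -0.572 (adjusted p = 0.02877) and ENO2 at -0.516 (adjusted p = 0.02873), and 1 in the interaction, ADM at 0.547 (adjusted p = 0.04799). The cause was not tested. Over the 23 alternatives ADM ran between 0.323 and 0.575 log2 in the premir comparison (adjusted p 0.01315 to 0.683) and ENO2 between -0.578 and -0.412 (adjusted p 0.02873 to 0.6839). Of 2730 member values under alternatives, 2726 kept their side of the threshold, 4 newly passed it, and 176 changed sign while both intervals held 0. The members' median lay between -0.312 and 0.024 in the premir, -0.078 and 0.042 in the antimir, -0.209 and 0.046 in the interaction and 0.034 and 0.122 in the control comparison. The premir calls of CITED2 and INSIG2 held in 10 of 23 alternatives each and that of STC1 in 15 of 22. The alternative without a value for STC1 kept only probes with a detection p under 0.01 on all 11 arrays. With the authors' scaled values all 3 were lost (CITED2, INSIG2 and STC1 at adjusted p = 0.1975, 0.3817 and 0.1266). CITED2 and INSIG2 were also lost under median centring (0.08362 and 0.2786), trended and robust variances (0.07222 and 0.05501) and with the compared groups alone (0.249 and 0.1067), and STC1 and INSIG2 with no filter (0.07142 and 0.05513). Array weights gained the interaction for CITED2, STC1 and INSIG2 (0.04758, 0.005704 and 0.005704) and the control comparison for STC1 (0.01178), which also passed with the compared groups alone (0.04219).

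The count of all features past the threshold moved more. In the premir comparison it was 124, with 22 on 12 arrays, 43 with the authors' scaled values, 52 under median centring, 1023 with array weights and 71 with the compared groups alone. In the interaction it was 63, with 0 on 12 arrays, 18 with the scaled values, 14 under median centring, 35 with no filter, where 37164 features were tested, and 638 with array weights. For antimir control against premir control it was 36, with 4 on 12 arrays, 16 with the scaled values, 21 under median centring, 147 with array weights and 112 with the compared groups alone. Leaving out 1 array at a time gave 71 (without premir miR-10b 3) to 367 (without premir miR-10b 1), 17 to 275 and 9 to 91 for these 3 comparisons; without either of the premir miR-10b arrays the remaining 1 is assumed to vary like the other groups. In the antimir comparison it was 0 throughout.

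With the replicate block, 101 features passed in the premir comparison, 36 in the interaction and 27 between the control oligos, and 0 members in each; CITED2 and INSIG2 no longer passed in the premir comparison (adjusted p = 0.09377 for both). Of the arrays, 4 of 11 arrays correlated best with an array of their own number. The slide as a block was not run because the files name no slides, and the interaction has no fit with the compared groups alone. Depth is not a count here: EGLN1, ANKRD37 and 1 further probe each of ANGPTL4, PKM and VEGFA were not detected on premir miR-10b 2, so their levels there are at background.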
